A study of Mus musculus with 6 samples.

Results

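The *Nanog*, *Gdf3* and *Dppa3* gene cluster was examined for the binding of OCT4 and NANOG in mouse embryonic stem cells (ESCs) that differ in expression of *Esrrb*. The cluster was taken as 260 kb of chromosome 6 on mm9 (NCBIM37), from -157.5 to 102.5 kb relative to the annotated start of *Nanog*, and its members are all regions of the 6 deposited lists that lie there, which are 22 of the 23767 distinct regions in the series. Each region was assigned to the nearest annotated start of the 3 genes. The members were chosen by position and not by binding values, although earlier results of these data were known. The annotation places all 3 genes within these limits.

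ChIP-Seq was done on E-GFPd1 cells, labelled Esrrb-2a-GFPd-IBIH, a clonal E14Tg2a ESC line in which a destabilised GFP is placed after a T2a peptide at *Esrrb*, so GFP fluorescence reports *Esrrb* expression. All groups share this genotype and culture in medium with LIF and FCS, with no drug or other treatment. By fluorescence, cells were sorted as Esrrb-GFP high (the brightest 10%), Esrrb-GFP medium (the 15% next to the negative gate) and Esrrb-GFP negative, the last also called low in 1 label field, and OCT4 was precipitated with a goat and NANOG with a rabbit antibody. There is 1 library for each of the 2 factors in each of the 3 fractions, made from 3 pooled ChIPs, so there is no spread between replicates, no test between fractions was possible, and the values compare 6 libraries. The lists give positions only, with no signal, read count or expression, so a region is present or absent, the depth of each library is unknown, and the identity of the cells could not be checked by marker genes.

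OCT4 and NANOG are transcription factors that hold ESCs undifferentiated, and ESRRB is an orphan nuclear receptor encoded by a gene that NANOG regulates. *Nanog* encodes the homeodomain factor itself, *Gdf3* encodes a TGF-beta family ligand related to Nodal, and *Dppa3* encodes Stella, a maternal factor that protects DNA methylation patterns in the early embryo. The 3 genes lie close together on the chromosome and are all known to be transcribed in pluripotent cells, and OCT4 often binds DNA together with SOX2 at a composite Oct-Sox site.

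The sequences of members at or close to the starts of the 3 genes are shown first, as the regions that are described most closely. They are plus-strand reference sequence of NCBIM37, which is not the genome of the E14Tg2a line, and positions count from 1. The first is the part of the *Nanog* promoter region upstream of the first annotated exon, chr6:122657412-122657506, with capitals at an exact Oct-Sox match on the minus strand and at a KLF match.
Nanog promoter: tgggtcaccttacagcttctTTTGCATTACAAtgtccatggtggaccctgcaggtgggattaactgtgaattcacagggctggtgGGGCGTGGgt
The next pair, centred at -4.79 kb and -4.25 kb from the *Nanog* start, lies on either side of a gap of 180 bp. The first of them is chr6:122652512-122652811, the first 300 bases of a region of 420 bp, with capitals at the amplicon N4 that the study used for ChIP-qPCR of OCT4 and NANOG. The other is chr6:122653112-122653411, with capitals at an Oct-Sox match on the minus strand with 2 mismatches.
Nanog upstream NANOG region: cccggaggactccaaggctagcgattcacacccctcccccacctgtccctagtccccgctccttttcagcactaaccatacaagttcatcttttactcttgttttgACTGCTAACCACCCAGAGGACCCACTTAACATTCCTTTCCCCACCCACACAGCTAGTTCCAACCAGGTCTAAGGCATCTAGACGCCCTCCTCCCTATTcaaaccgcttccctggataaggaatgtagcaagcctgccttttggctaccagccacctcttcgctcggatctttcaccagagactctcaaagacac
Nanog upstream OCT4 region: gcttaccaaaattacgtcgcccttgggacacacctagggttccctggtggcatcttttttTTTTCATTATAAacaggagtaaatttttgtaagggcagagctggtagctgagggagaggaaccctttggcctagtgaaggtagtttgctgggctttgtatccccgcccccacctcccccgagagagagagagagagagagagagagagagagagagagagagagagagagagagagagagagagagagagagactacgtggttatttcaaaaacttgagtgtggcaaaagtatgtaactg
At *Dppa3*, the upstream region chr6:122574452-122574731 is shown with capitals at 2 exact octamers on the minus strand and the Oct-Sox matches that overlap them. The promoter regions chr6:122576272-122576311 and chr6:122576372-122576427 (the latter up to the first exon) held no match and have no capitals.
Dppa3 upstream region: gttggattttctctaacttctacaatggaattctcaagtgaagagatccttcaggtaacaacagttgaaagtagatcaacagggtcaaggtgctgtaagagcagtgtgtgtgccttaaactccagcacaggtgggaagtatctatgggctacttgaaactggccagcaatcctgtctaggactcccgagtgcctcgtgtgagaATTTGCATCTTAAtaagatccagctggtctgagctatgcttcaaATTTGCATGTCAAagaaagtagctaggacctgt
Dppa3 promoter region 1: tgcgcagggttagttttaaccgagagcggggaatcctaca
Dppa3 promoter region 2: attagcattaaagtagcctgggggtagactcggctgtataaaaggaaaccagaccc
In *Gdf3*, 260 bases of the wider intron region are shown, chr6:122557932-122558191, with capitals at 3 KLF matches and 1 ESRRB match with 1 mismatch.
Gdf3 intron region: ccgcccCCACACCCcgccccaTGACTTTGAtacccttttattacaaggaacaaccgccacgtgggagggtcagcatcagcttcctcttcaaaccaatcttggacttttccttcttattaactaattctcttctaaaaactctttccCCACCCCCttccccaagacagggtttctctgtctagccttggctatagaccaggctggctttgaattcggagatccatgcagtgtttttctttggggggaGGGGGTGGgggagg

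Across the cluster, the OCT4 lists of Esrrb-GFP high, medium and negative cells held 12, 14 and 9 of the 22 regions, and the NANOG lists held 10, 7 and 2. Of the 9 OCT4 regions of negative cells, 4 were also in the high list, and of the 2 NANOG regions of negative cells, 1 was. The OCT4 regions covered 2640, 2700 and 1220 bp, and the NANOG regions 2120, 1580 and 480 bp, in the order high, medium and negative. The cluster held between 0.0868% and 0.106% of the regions of each of the 3 OCT4 lists and of the NANOG high list, 0.148% of the NANOG medium list and 0.699% of the NANOG negative list, the last being 2 of 286 regions. Of the 22 regions, 13 were in 2 lists (59.1%, against 35.1% of all regions) and 0 were in all 6, where 0.181% of all regions are found.

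**Figure D1:**
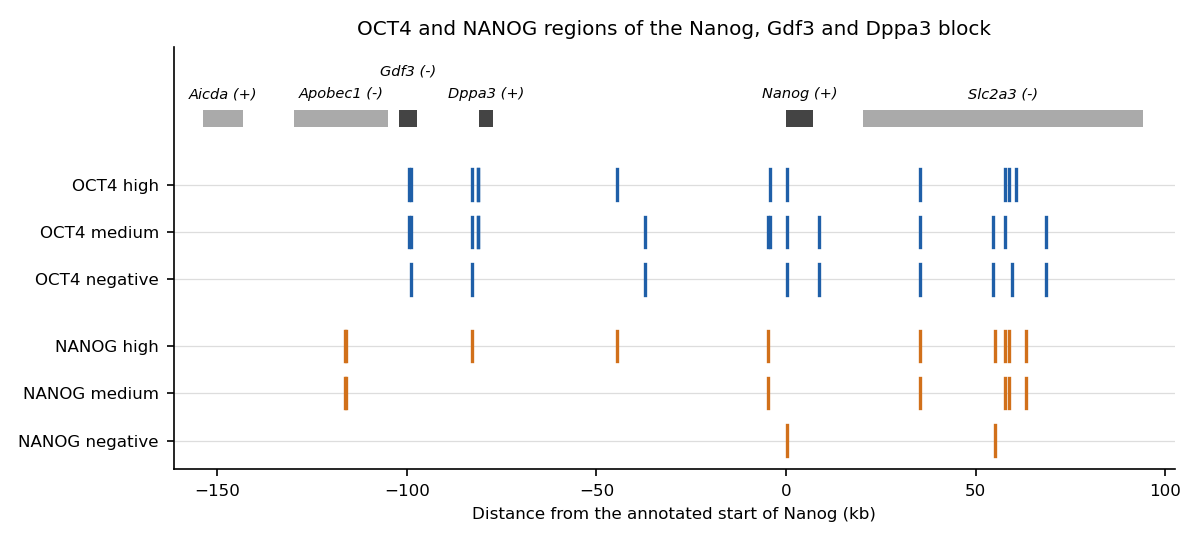
Position of every OCT4 (blue) and NANOG (orange) region, as distance from the annotated start of *Nanog* in kb (x axis), in each of the 6 libraries (rows), below the protein-coding genes with their strand; ticks mark centres and are not drawn to width. NANOG has 10 ticks in high cells and 2 in negative cells, at the *Nanog* promoter and in *Slc2a3*.

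At the *Nanog* promoter, 1 region of 420 bp (chr6:122657412-122657831), which overlaps the first exon and whose centre lies 115 bp downstream of the annotated start at 122657507, was bound by OCT4 in all 3 fractions. NANOG was called there in negative cells and not in high or medium cells. This combination of lists was found at 2 of all 23767 regions (0.00842%). Of the 286 NANOG regions of negative cells, 21 were called in negative cells alone (7.34%), and 3 of these 21 lay within 1 kb of a start. By contrast, 154 of the 286 (53.8%) were called in all 3 fractions. A region is listed in a fraction only where it retained at least 50% of its highest depth-normalized signal, so the lists do not show whether NANOG signal was present below that level at the *Nanog* promoter in high and medium cells. The result rests on 1 entry of the smallest library list. In the paper's average profiles, NANOG binding was markedly lower in negative cells, including at the 286 positions still called there. Taken as stated, the 50% rule would instead place the highest NANOG signal at this promoter in negative cells, with high and medium cells under 50% of it. The lists hold no signal, so this order and the size of any difference could not be checked. The study's amplicon N21, chr6:122657393-122657485, overlaps this region and covers the exact Oct-Sox match at -70 bp from the start, and its amplicon for a site without binding, N17, chr6:122656500-122656615, overlapped no region. N21 served for ChIP-qPCR of OCT4, NANOG and ESRRB. At the *Nanog* promoter, the paper reports OCT4 still detectable in negative cells and graded ESRRB binding across the fractions. The text of the paper gives no NANOG value for this promoter. By immunoblot, it reports less NANOG protein in negative cells.

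The upstream pair at *Nanog* was absent from both factors' lists of negative cells. The region at -4.79 kb was in the NANOG high and medium lists and, for OCT4, in the medium list alone. This combination was found at 136 regions of the series (0.572%). The neighbour at -4.25 kb was in the OCT4 high and medium lists and in no other, as were 2484 regions of the series (10.5%). In high cells, the NANOG list thus held the first region and the OCT4 list the second, with 180 bp between them. In medium cells, the lists of both factors held the first. The sequence shown for the neighbour contains an uninterrupted GA run of 74 bp, the longest of the 22 regions, where the next longest was 14 bp. A GA run of at least that length was found in 10 of the 23767 regions (0.0421%), and its part in the calls was not tested. Of the amplicons designed upstream of *Nanog*, N4 and N5 (the latter for ESRRB ChIP, chr6:122652847-122652951) both overlap the -4.79 kb region. By ChIP-qPCR, the paper reports OCT4 still detectable, though reduced, at the *Nanog* enhancer in negative cells. Absence from the negative list is therefore not absence of OCT4 there. Nor does the OCT4 high list show that high cells lacked OCT4 at -4.79 kb, where amplicon N4 lies. The lists therefore do not show that the factors occupied separate regions in high cells.

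**Figure D2:**
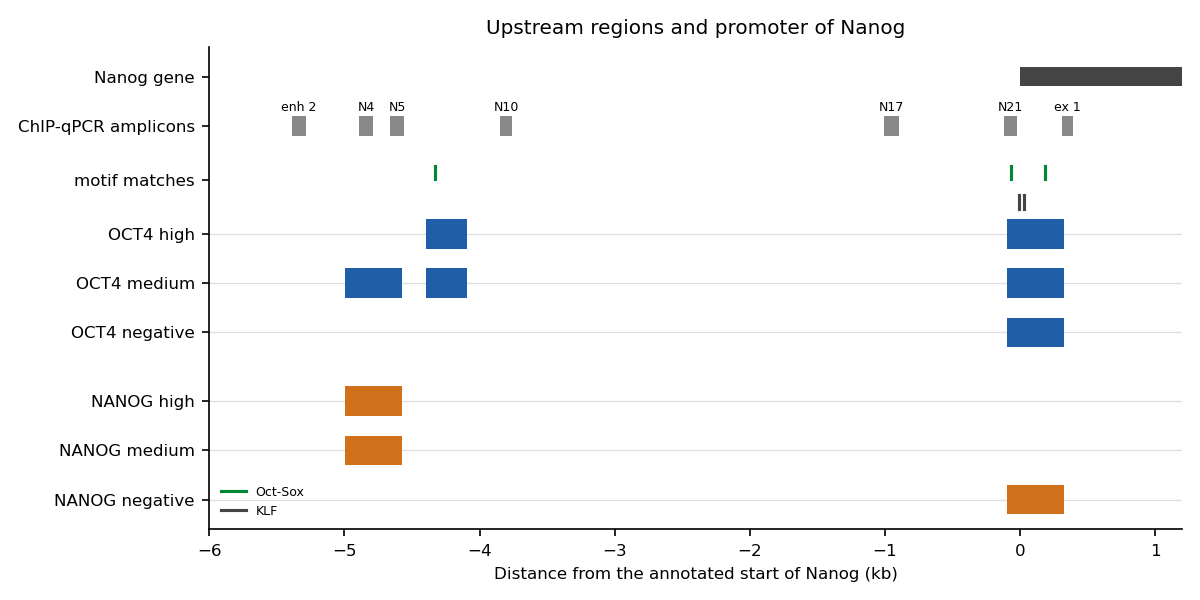
OCT4 (blue) and NANOG (orange) regions around and upstream of the *Nanog* start, drawn to scale (x axis, kb), with the study's ChIP-qPCR amplicons and the Oct-Sox (upper) and KLF (lower) matches. In the lists of negative cells the upstream pair is missing for both factors, and the promoter region is present for both.

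At *Dppa3*, the 3 regions nearest to the start held OCT4 in high as well as medium cells, and 1 of them also in negative cells. The regions centred at -136 and -26 bp from the start at 122576428, 40 and 60 bp wide, were in the OCT4 high and medium lists and in no other. The region centred at -1836 bp, 280 bp wide, was bound by OCT4 in all 3 fractions and by NANOG in high cells alone. It is a Class II region, the study's name for a region co-bound by OCT4 and NANOG in high cells that keeps OCT4 and loses NANOG in negative cells. The fourth *Dppa3* region, chr6:122612892-122613091, lies between genes at 36.56 kb from the *Dppa3* start and -44.52 kb from the *Nanog* start. Both factors were called there in high cells only, and is Class I, the name for a co-bound region that loses both factors in negative cells.

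The *Gdf3* gene, which lies on the minus strand from 122555421 to 122560105, held 2 OCT4 regions in an intron and no NANOG region in any fraction. The wider of them, 380 bp at 2.04 kb downstream of the start, was bound in high and medium cells. The other, 80 bp at 1.49 kb, was bound in all 3 fractions, a combination of lists shared by 4166 regions (17.5%) of the series. The other pair assigned to *Gdf3*, 18.78 and 18.67 kb downstream of its start, lies in *Apobec1*, which encodes a cytidine deaminase. Both were bound by NANOG in high and medium cells and by OCT4 in no fraction. Both factors were called, in the same or different fractions, at 0 of the 4 regions assigned to *Gdf3*, 2 of 4 for *Dppa3* and 5 of 14 for *Nanog*, against 17.7% of all regions of the series, and these counts are too small to set the genes apart.

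**Figure D3:**
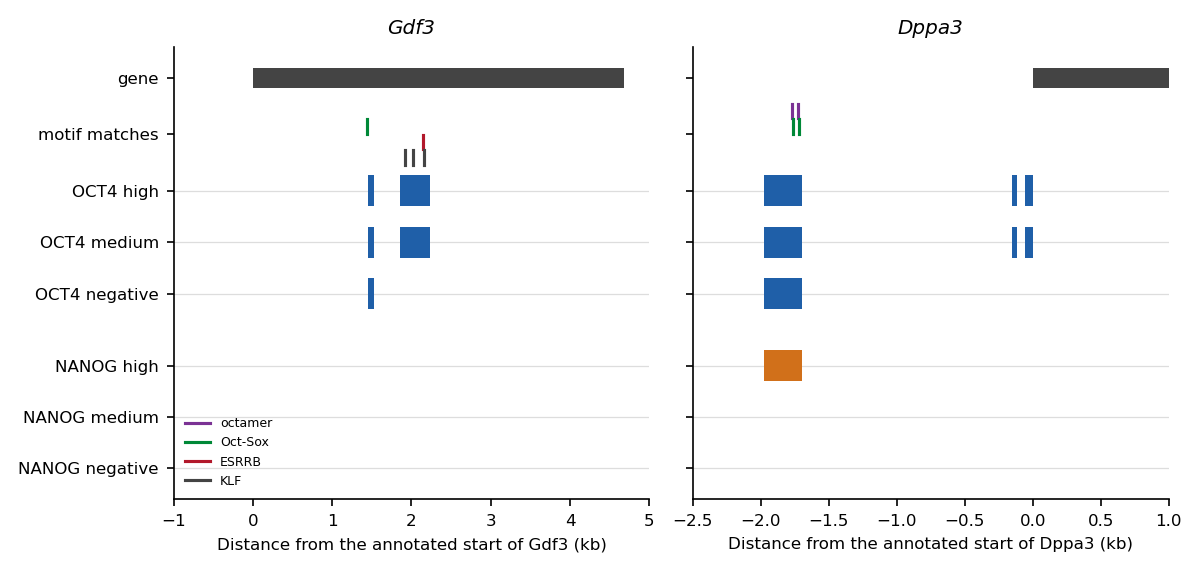
OCT4 (blue) and NANOG (orange) regions at *Gdf3* (left) and *Dppa3* (right), to scale, as distance from each annotated start in kb along the direction of transcription, with exact octamers, Oct-Sox matches with up to 2 mismatches, ESRRB matches with up to 1 and exact KLF matches. *Gdf3* has OCT4 regions only, and of the 3 *Dppa3* regions the upstream one is present in the OCT4 negative list.

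Downstream of *Nanog*, 9 of the 14 regions assigned to it lie in *Slc2a3*, which encodes the glucose transporter GLUT3. The first, chr6:122692652-122692771, is 51 bp from a start of *Slc2a3* and 35.2 kb from that of *Nanog*. It is Class II, with OCT4 in all 3 fractions and NANOG in high and medium cells, and its 5 lists are the most of the 22 members. The other 8 lie within 14.1 kb, centred from 54.62 to 68.61 kb downstream of the *Nanog* start. They are in *Slc2a3* introns only for transcripts from its starts at 122729975 and 122751658, and lie upstream of its other annotated starts. The 8 include 2 Class I regions. Of these, chr6:122715152-122715491 held both factors in high and medium cells, and chr6:122716192-122716571 held OCT4 in high cells with NANOG in the high and medium lists. At the latter NANOG was kept in medium cells without OCT4. A region of 60 bp, chr6:122712612-122712671, was bound by NANOG in high and negative but not in medium cells and was not bound by OCT4. It is the only NANOG region of high cells in the cluster that was also called in negative cells, and 59 regions of the series share its lists (0.248%). Its 60 bases held no match to the motifs searched, and a KLF match lies outside its end.
NANOG high and negative region: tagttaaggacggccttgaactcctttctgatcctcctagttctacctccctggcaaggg
The region chr6:122720612-122720791 was bound by NANOG in high and medium cells and chr6:122718192-122718231 by OCT4 in high cells, each without the other factor.

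At 5 members, OCT4 was called in negative cells but not in high cells. Those at -37.31, 8.69, 54.62 and 68.61 kb from the *Nanog* start were in the OCT4 medium and negative lists and in no other, a combination of 2205 regions of the series (9.28%). The region at 59.67 kb was in the OCT4 negative list alone. These 5 were between 40 and 100 bp wide, whereas the 4 OCT4 regions present in both high and negative cells were 80, 280, 420 and 120 bp wide. NANOG was absent in every fraction from all 5, and likewise from 94.7% of all OCT4 regions of negative cells that the high list lacks. Width is set by merging the peaks of all libraries and so grows in part with the number of lists that hold a region.

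The shares of regions lost and gained in the cluster were set beside those of the whole lists. Of the 12 OCT4 regions of high cells, 8 were lost in negative cells (66.7%, 95% Wilson interval 39.1 to 86.2), against 45.1% of all OCT4 regions of high cells. The 4 that kept OCT4 were the *Nanog* promoter, the upstream *Dppa3* region, the narrower *Gdf3* intron region and the region at the *Slc2a3* start. In medium cells 3 of the 12 were lost (25%, 8.89 to 53.2), against 21.3% of the whole list. Of the 14 OCT4 regions of medium cells, 6 were lost in negative cells (42.9%, 21.4 to 67.4), against 44.1%, and 5 were not called in high cells (35.7%, 16.3 to 61.2), against 32.3%. Of the 9 OCT4 regions in negative cells, high cells lacked 5 (55.6%, 26.7 to 81.1), against 34.1%. These intervals cover counting error over regions of 1 library each, and in every one of these comparisons the value of the whole list fell within the interval of the cluster.

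Of the 10 NANOG regions of high cells, 9 were lost in negative cells (90%, 59.6 to 98.2), against 97.5% of the whole list, and 3 were lost in medium cells (30%, 10.8 to 60.3), against 52.3%. The 3 lost in medium cells were the upstream *Dppa3* region, the Class I region between *Dppa3* and *Nanog*, and the region bound in high and negative cells. OCT4 was also present at 5 of the 10 in high cells (50%, 23.7 to 76.3), against 39%, and at 3 of the 7 NANOG regions of medium cells (42.9%, 15.8 to 75), against 42.2%. Of the 5 regions co-bound in high cells, 3 were Class I (60%, 23.1 to 88.2), against 55.3%, and the other 2 were Class II. For NANOG too, each value of the whole list lay within the interval of the cluster.

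**Figure D4:**
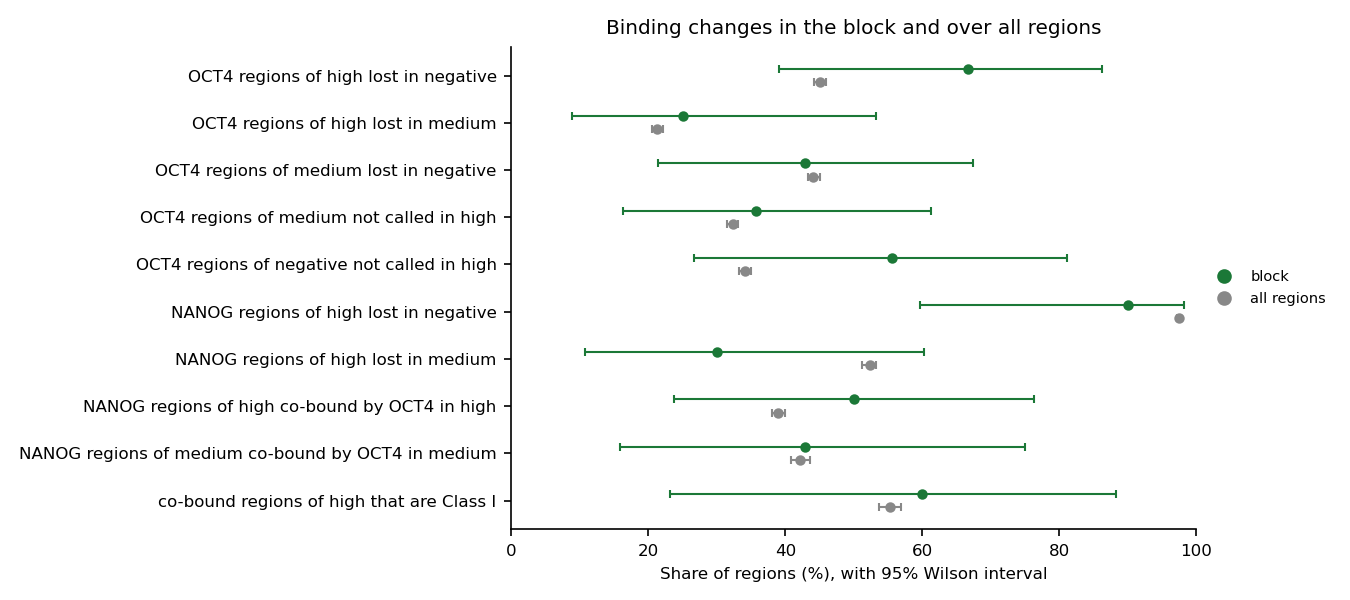
Share of regions (x axis, %) that were lost, gained, co-bound or Class I in the cluster (green) and over all regions of the same list (grey), with 95% Wilson intervals for counting error over regions. Every grey point lies within the green interval beside it, for example 45.1% within 39.1 to 86.2% for OCT4 loss in negative cells.

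Regions were dense in the cluster. When the genome was divided into 10201 windows of 260 kb, the median window held 2 regions, 3027 windows held none, and 4 windows (0.0392%) held 22 or more, with 25 the most in any window. The members formed 7 groups when regions within 10 kb were joined, the largest of which was the group of 8 in *Slc2a3* introns. Of the 22 centres, 4 lay within 1 kb of an annotated start (18.2%, against 8.9% of all regions), at the promoters of *Nanog*, *Dppa3* (2 regions) and *Slc2a3*. The median member was 100 bp wide (interquartile range 60 to 295), against 80 bp (60 to 160) over all regions, and the median GC content within 100 bp of the centre was 48.8%, against 48%.

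**Figure D5:**
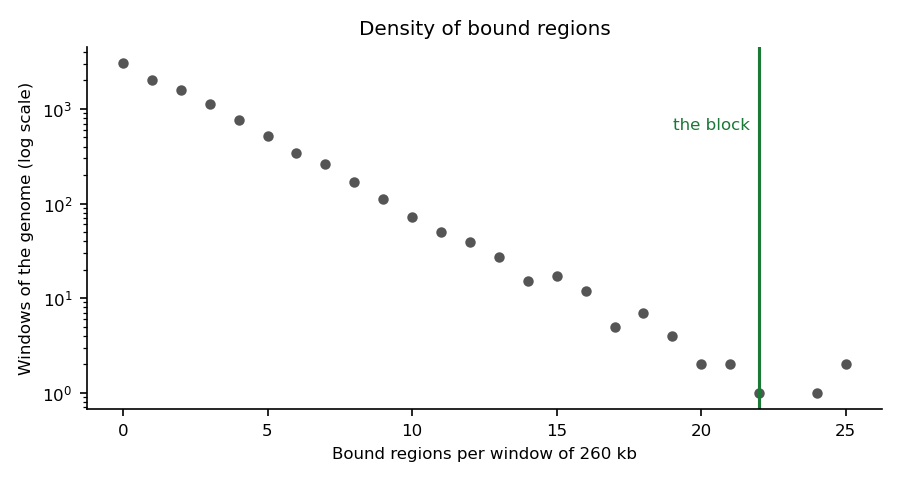
Number of 260 kb windows of the genome (y axis, log scale) by the number of regions they hold (x axis), with windows that hold the same number as 1 point and the count of the cluster, 22, as a green line. Only 4 of 10201 windows hold 22 or more.

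Windows of the same length centred on the starts of 3 other pluripotency genes give the values side by side. The *Esrrb* window held 4 regions, of which the OCT4 high, medium and negative lists held 2, 3 and 0, and both OCT4 regions of high cells were Class I. The *Sox2* window held 21 regions, with 12, 17 and 9 OCT4 regions and 11, 9 and 1 NANOG regions in high, medium and negative cells, and 6 of its 12 OCT4 regions of high cells were lost in negative cells. The *Pou5f1* window, around the gene of OCT4, held 12 regions, of which OCT4 bound 7, 11 and 8 and NANOG 2, 2 and 0. The *Sox2* window was thus nearest to the *Nanog* cluster in its numbers, and the NANOG regions of negative cells were 2 in the *Nanog* cluster, 1 at *Sox2* and 0 at *Esrrb* and *Pou5f1*.

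The 4 motifs were searched on both strands within 100 bp of each centre, and in parentheses is the share of all 23767 regions that match. The octamer ATGCAAAT was found exactly in 1 of 22 members (4.55%, against 7.86%). The Oct-Sox motif, TTGT followed by 1 base of any kind and ATGCAAA, which shares the last 7 bases with the octamer, was found with up to 2 mismatches in 5 members (22.7%, against 32.3%). The ESRRB motif TCAAGGTCA was found with up to 1 mismatch in 2 members (9.09%, against 11.2%), but within 250 bp of centres it was in 7 (31.8%, against 21.5%), and exactly within 100 bp in 1 (4.55%, against 1.39%), so the order of the shares depends on the search. The KLF motif GGGNGTGG was found exactly in 8 members (36.4%, against 11.9%), among them the *Nanog* promoter, the *Slc2a3* start, the *Gdf3* intron region and the Class I region between *Dppa3* and *Nanog*. In the interval of the region itself, a search added after the data had been seen, KLF matches were in 5 members (22.7%, against 6.85%). An exact Oct-Sox match within the interval was found at the *Nanog* promoter alone among the members (4.55%), against 213 of all regions (0.896%). Interval searches cover more sequence in wider regions, and members are wider than all regions (upper quartile 295 bp, against 160 bp). The matches at the promoters and introns of the 3 genes are those in capitals above, together with an Oct-Sox match 187 bp and a KLF match 27 bp downstream of the *Nanog* start and an Oct-Sox match beside the narrower *Gdf3* region. A match is a description of the reference letters and was not tested for binding.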

How the data were processed

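The members and lists were chosen with earlier results of these data known. OCT4 and NANOG ChIP-Seq of Esrrb-GFP high, medium and negative cells was grouped by the antibody and fraction in the labels (6 libraries). According to the methods and the submitters' processing notes, the authors aligned reads with Bowtie (version not given in the sources used here) to mm9 in GeneProf, called peaks using SISSRs, joined the peaks that overlapped between datasets, and counted a joined region as lost in a fraction where its depth-normalized signal fell under 50% of the highest. The deposited lists hold genomic intervals without any score, in widths of multiples of 20 bp. All 51722 entries have the limits of one of 23767 merged regions, so regions of different lists were the same where they overlapped by 1 bp or more, and none reached beyond a chromosome end of NCBIM37.

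Genes came from GENCODE vM1 for that assembly (37310 genes). The regions named are those within 1 kb of a start of the 3 genes, those co-bound in high cells, those bound by NANOG in negative cells and those gained in medium or negative cells, and the 3 genes with all regions nearest to them. Shares have 95% Wilson intervals, which cover counting error only. Motifs were searched within 100 bp of centres. Alternatives were other joining distances, block limits, widths, search windows, mismatches and window sizes; motif searches in the region's own interval were chosen after seeing the data. Amplicon positions came from matching the study's primers to the genome. Repeats are not marked in the sequence used and were not examined apart from the GA run. Functions were tested on 5000 simulated regions, where 6 of 6 known answers were recovered. Python 3.11.15, numpy 2.4.6, statsmodels 0.14.6 and matplotlib 3.10.9 were used.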

Additional observations from a re-analysis of the deposited data

How the results depend on the processing

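No paired analysis was possible because each factor and fraction has 1 library and no test was made. With gene bodies and 20 kb either side in place of the block, 11 regions remained, with 7, 9 and 4 OCT4 and 4, 3 and 1 NANOG regions in high, medium and negative cells, 0 Class I and 1 Class II regions, and 100% of NANOG regions of high cells lost in negative cells (4 of 4). When regions narrower than their list's median were left out, 14 regions remained, with 8 OCT4 regions in medium and 1 NANOG region in negative cells, and 100% of NANOG regions of high cells lost (8 of 8). Both settings leave fewer regions by construction. The OCT4 loss from high to negative cells ranged from 57.1% to 66.7%. Joining within 500 bp left 17 regions and 4 Class I regions, the added one being the upstream pair at *Nanog*, which holds both factors in high cells once joined. That label rests on the lists alone, as the paper reports by ChIP-qPCR that the *Nanog* enhancer kept detectable OCT4 in negative cells. Motif counts moved most: within 50 bp of centres the octamer, Oct-Sox, ESRRB and KLF motifs were in 0, 1, 0 and 4 members (all regions 5.54%, 23%, 5.34% and 6.05%), within 250 bp Oct-Sox and ESRRB were in 9 and 7 (40.9% and 31.8%, all regions 42% and 21.5%), and in the region's own interval Oct-Sox, ESRRB and KLF were in 3, 1 and 5 (13.6%, 4.55% and 22.7%, all regions 25.2%, 7.01% and 6.85%), with 1 exact Oct-Sox match (4.55%, all regions 0.896%). With other mismatch limits Oct-Sox was in 0 (up to 1; all regions 9.07%) or 14 (up to 3; 63.6%, all regions 69%), ESRRB in 1 (none; 4.55%, all regions 1.39%) or 11 (up to 2; 50%, all regions 50.9%), KLF in 16 (up to 1; 72.7%, all regions 61%) and the octamer in 9 (up to 1; 40.9%, all regions 38.9%). The share of members was above that of all regions for ESRRB within 250 bp and with no mismatch and below it in the other ESRRB searches. For KLF it was above in every search run, and for the octamer above it only with 1 mismatch. For Oct-Sox it was below in every search except the exact search in the region's own interval, which was chosen after seeing the data. Of 79 alternative values, 49 stayed within the limits set for no change. Without replicates or signal, a region's absence cannot be told apart from a value just under the authors' threshold, and unknown depth limits every comparison between lists.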
